A study of Homo sapiens with 9 samples.

Results

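The genes described here encode proteins of the centrosome and the cilium: every probe of the array whose gene symbol starts with CEP, IFT or BBS followed by a digit, together with PCM1, PCNT, NIN, NINL, CNTRL, OFD1, AKAP9, CDK5RAP2, SASS6, CENPJ and AZI1. That rule, which uses names only and no measured value, found 109 of 35328 probes, for 66 of 15178 genes named on the array: 34 CEP, 17 IFT and 8 BBS genes and 7 of the singly named ones. Of the others, AZI1 carries its current symbol CEP131 and is counted among the CEP genes, the platform gives CENPJ as CPAP, which the rule does not cover, and every probe of NINL and CNTRL also matches another gene. There are 7 such shared probes, for CEP68, NINL, CNTRL and IFT52, and they were left unnamed. A test could be made for 94 probes of 61 genes. Each of the 15 untested probes lacked a ratio in at least 1 dye orientation of an siRNA; CEP170B, CEP78, SASS6, IFT70B and CEP85L had no tested probe.

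The cells were SKbr3, an established human breast cancer line with amplified HER2, treated with siRNA against TRMT12, a transferase in the synthesis of the modified guanosine wybutosine in phenylalanine transfer RNA. Each of 3 TRMT12 siRNAs was set against the same control siRNA on 3 two-colour oligonucleotide arrays, 9 arrays in all. The knockdown RNA carried Cy5 on arrays 1 and 2 of each siRNA and Cy3 on array 3, called the dye-swapped array below. No dose or time after transfection is given, transient siRNA leaves part of the targeted transcript, and all groups share this line. All values are log2 ratios of TRMT12 siRNA over control siRNA after loess normalisation within each array, so that 0 means equal signal. A dye-adjusted estimate with its SE was obtained for each siRNA from all 9 arrays, and the mean over the 3 siRNAs was tested against 0 with 1 dye-balanced value per siRNA (n = 3). "Called" means a Benjamini-Hochberg adjusted p under 0.05 over all 28139 tested probes in limma. Nothing in the labels says whether repeat arrays used separate cultures. The spread behind the p-values of single siRNAs and of their differences is therefore that between hybridisations and may be purely technical. The same control RNA may have served all 3 siRNAs, so similarity between them is not counted as independent evidence here. The test of the mean over siRNAs treats its 3 values as independent. If they shared a control, its SE and p-values leave out the error of that control and may be too small.

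The centrosome is a pair of centrioles in a matrix of pericentriolar material, which nucleates microtubules. Around it move centriolar satellites, granules built on PCM1 that carry proteins to it. The older centriole bears distal and subdistal appendages, and in a quiescent cell it docks to the plasma membrane as the base of a primary cilium. Intraflagellar transport, by the IFT-B and IFT-A complexes, moves cargo along the cilium, and the BBSome carries membrane proteins through it. Many breast cancer lines form few cilia, and these proteins also serve the dividing cell. Whether SKbr3 cells had cilia here was not measured. Of 7 genes of multiciliated epithelium on the array, CCDC39 and TEKT1 exceeded the 75th percentile of the negative-control probes with control RNA on all 9 arrays.

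Promoters are shown for 6 member genes chosen after their values were seen. CEP290, CEP57 and CEP152 were called higher with all 3 siRNAs by at least 1 probe each. CEP131 and BBS1 were called lower with all 3 by 1 probe each, while their other probes had no call. The probes of CEP41 differed in direction. The sequences come from RefSeq on GRCh38.p14 and run from 250 bases before to 50 bases after the annotated start. Capitals mark matches, on either strand, to the RFX X-box consensus with 0 to 3 bases between its arms, to CCAAT, to TTTGAA (a cell cycle homology element), to GGCGGGAA (an E2F-type site) and to TGACGT (a cyclic AMP response element core).
CEP290, chr12:88142039-88142338 (minus strand): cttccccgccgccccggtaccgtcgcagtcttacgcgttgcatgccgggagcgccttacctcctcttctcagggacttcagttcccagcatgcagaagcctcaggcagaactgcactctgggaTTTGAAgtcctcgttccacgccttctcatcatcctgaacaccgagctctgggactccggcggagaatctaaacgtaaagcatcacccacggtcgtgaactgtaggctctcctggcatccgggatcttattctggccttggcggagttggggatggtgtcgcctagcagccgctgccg
CEP57, chr11:95790248-95790547 (plus strand): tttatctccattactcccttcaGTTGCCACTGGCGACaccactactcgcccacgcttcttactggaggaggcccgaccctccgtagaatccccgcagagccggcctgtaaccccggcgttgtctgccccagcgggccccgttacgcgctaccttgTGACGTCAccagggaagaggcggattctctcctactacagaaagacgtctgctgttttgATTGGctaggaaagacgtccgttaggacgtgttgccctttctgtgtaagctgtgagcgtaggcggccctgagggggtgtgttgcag
CEP152, chr15:48811020-48811319 (minus strand): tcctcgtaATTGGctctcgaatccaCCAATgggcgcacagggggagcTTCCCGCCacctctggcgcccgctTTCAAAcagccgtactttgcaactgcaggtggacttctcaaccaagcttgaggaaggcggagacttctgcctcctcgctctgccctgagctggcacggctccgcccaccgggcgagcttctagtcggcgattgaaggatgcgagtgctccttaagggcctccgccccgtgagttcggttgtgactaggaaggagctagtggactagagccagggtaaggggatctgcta
CEP131, chr17:81222916-81223215 (minus strand): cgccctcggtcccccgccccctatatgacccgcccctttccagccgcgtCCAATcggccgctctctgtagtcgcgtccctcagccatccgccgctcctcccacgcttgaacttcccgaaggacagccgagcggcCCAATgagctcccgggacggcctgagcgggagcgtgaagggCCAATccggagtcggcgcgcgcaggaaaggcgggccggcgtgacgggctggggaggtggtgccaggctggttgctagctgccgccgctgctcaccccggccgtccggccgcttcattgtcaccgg
BBS1, chr11:66510385-66510684 (plus strand): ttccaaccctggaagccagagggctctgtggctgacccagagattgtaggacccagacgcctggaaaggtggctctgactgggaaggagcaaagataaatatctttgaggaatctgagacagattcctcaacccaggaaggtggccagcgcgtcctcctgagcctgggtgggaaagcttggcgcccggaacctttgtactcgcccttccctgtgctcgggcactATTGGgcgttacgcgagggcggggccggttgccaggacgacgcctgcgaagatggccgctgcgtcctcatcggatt
CEP41, chr7:130440967-130441266 (minus strand): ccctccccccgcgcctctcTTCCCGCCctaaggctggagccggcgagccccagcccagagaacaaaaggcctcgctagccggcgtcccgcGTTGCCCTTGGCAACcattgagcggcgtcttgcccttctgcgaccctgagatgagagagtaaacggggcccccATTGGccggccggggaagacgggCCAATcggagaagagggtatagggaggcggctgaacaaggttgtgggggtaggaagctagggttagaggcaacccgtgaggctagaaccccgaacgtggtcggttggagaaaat
The X-box, the site bound by the RFX factors that serve ciliary genes, was found in CEP57 and CEP41 and in none of the other 4 windows. Of 66 member genes, 59 had a promoter in the RefSeq table, with 71 promoters in all. An X-box stood in 8 of these (11.3%), against 1.31% of all 35116 promoters: in CEP112, CEP135, CEP41, CEP57, IFT122, IFT57, IFT70A and IFT70B. CCAAT was in 45.1% of member promoters and 34.6% of all, TTTGAA in 29.6% and 15.2%, TGACGT in 22.5% and 7.98%, and GGCGGGAA in 9.86% and 3.16%. No matches to different motifs overlapped in the member promoters. Median GC content was 62.3% in member promoters and 58.7% in all. A match describes letters only. Among genes with an X-box, CEP57 was called higher with each siRNA, CEP135 with siRNA 1 and 2 by 1 of 2 probes, and CEP112 with siRNA 1 by 1 of 2 probes. CEP41 had calls in both directions, the higher one lost under several alternatives. IFT122, IFT57 and IFT70A had no call, and IFT70B was not tested. CEP135 is named after its values were seen. Its called probe, HV3-73C06, changed sign with the dye orientation. It read 0.76, 0.72 and -0.07 with siRNA 1 and 0.89, 0.71 and -0.13 with siRNA 2. With siRNA 3 it read 0.50, 0.45 and -0.47. The value given last for each, with the knockdown in Cy3, was below 0. A dye effect was called at 0.45 (adjusted p = 0.00155), above the estimates of 0.32 and 0.34 with siRNA 1 and 2.

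Median signal over background per array ranged from 176.5 to 420.6 for knockdown RNA and from 131 to 517.75 for control RNA, and 2.57% to 24.26% of probes gave no ratio. On array 2 of siRNA 2, 2.58% of tested probes had a log2 ratio above 2 or below -2. That share was 0.0249% to 0.59% on the other arrays, so single extreme ratios on that array are not particular to the members, of which 3 (3.19%) had one. On the dye-swapped array of siRNA 1, 3 members (3.19%) also had such ratios, against 0.288% of all tested probes. These were probes of CEP120, IFT81 and CEP112. Signals of the randomised negative-control probes were high enough that 120 of 188 would themselves have passed the filter for testing, so passing it does not show that a gene is expressed. Of the 94 member probes, 61 exceeded the 75th percentile of the negative controls with either RNA on 6 or more arrays, and 45 lay below the median brightness of all tested probes. Cell type markers were scored with control RNA only. Of 9 markers of SKbr3 and luminal cells, 7 exceeded that percentile on all 9 arrays. This held for COL1A1 of 4 fibroblast genes, PTPRC of 3 blood genes and none of 2 endothelial genes. COL1A1 and PTPRC each did so with 1 of 2 probes, and VIM was over the percentile with none. CDH1, known to be lost in SKbr3, was over it on 8 arrays with 1 of its 2 probes. In extracts of many cells, fewer cells with a transcript and less transcript per cell cannot be told apart.

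TRMT12, now named TYW2, has 1 probe and was lower on every array. Its log2 ratios were -2.55, -2.73 and -2.65 with siRNA 1, -2.62, -2.62 and -2.36 with siRNA 2, and -2.61, -2.51 and -2.35 with siRNA 3. The mean over the siRNAs was -2.53 ± 0.0734 (SE, adjusted p = 0.00988), the only call across siRNAs among all probes (0.00355%).

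More member probes were called higher than lower with each siRNA. With siRNA 1, 21 of the 94 were called higher, against 11.7% of all probes, and 10 lower, against 11.3%. With siRNA 2, 20 were higher (10.6% of all probes) and 5 lower (9.78%). With siRNA 3, 18 were higher (9.95%) and 6 lower (10.2%). As shares of the members these are 22.3%, 21.3% and 19.1% higher and 10.6%, 5.32% and 6.38% lower. The shares thus exceeded the background in the higher direction. CEP probes, 51 of the 94, made up 14, 12 and 13 of these calls with siRNA 1, 2 and 3. The counts depended on scaling and on single arrays: centring each array on its median in place of loess gave 9 higher and 13 lower with siRNA 1, 13 and 4 with siRNA 2, and 10 and 5 with siRNA 3, while all tested probes were then called higher in 5.5%, 3.92% and 2.89%. As shares, 9.57%, 13.8% and 10.6% of members were then higher, still above those backgrounds. Without the dye-swapped array of siRNA 1, its counts fell to 4 higher (4.26%, against 4.99% of all probes) and 4 lower (4.26%, against 3.19%), so that no excess in the higher direction was left for siRNA 1. Without its array 2, 11 were higher (11.7%, against 7.21%).

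**Figure D1:**
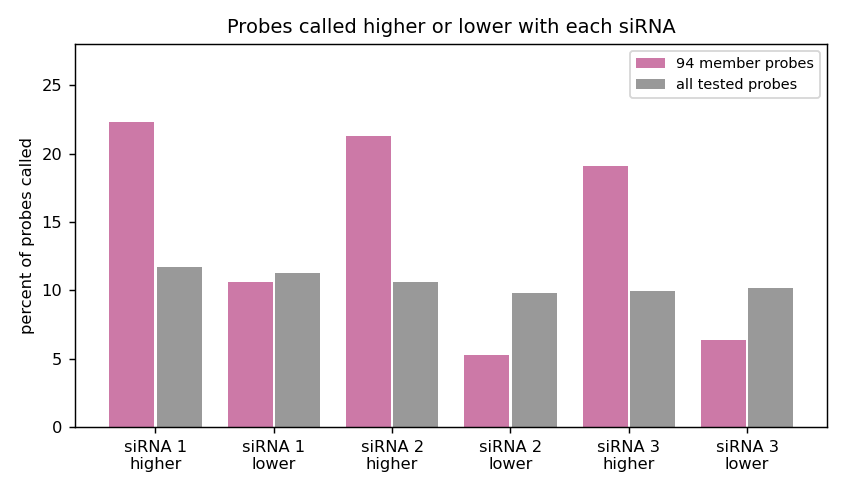
Percent of probes called higher or lower with each siRNA (adjusted p under 0.05), for the 94 member probes and for all 28139 tested probes. Bars for members exceed those for all probes in the higher direction with each siRNA, 22.3% against 11.7% with siRNA 1, and lie below them in the lower direction, 5.32% against 9.78% with siRNA 2.

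Across the 3 siRNAs the median of the 94 mean log2 ratios was 0.04, against 0 for all tested probes, and 58 of 94 lay above 0. It was 0.11 for CEP probes (0.06 with median centring and 0.08 with the authors' calibrated ratio) and -0.01 for BBS probes (-0.08 and -0.05). For IFT probes it was 0, with -0.01 under median centring and 0.02 with the calibrated ratio. Under these 2 scalings the median of all tested probes was itself -0.05 and -0.02. No member was called in that test, which rests on 3 values. At an unadjusted p under 0.05, 22 members were higher (11.8% of all probes) and 6 lower (11.7%). At an adjusted p under 0.1, 11 were higher (3.66%) and 3 lower (2.41%). All 9 arrays fitted together with the siRNA as a random block called 21 members (22.3%), against 13.6% of all probes.

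**Figure D2:**
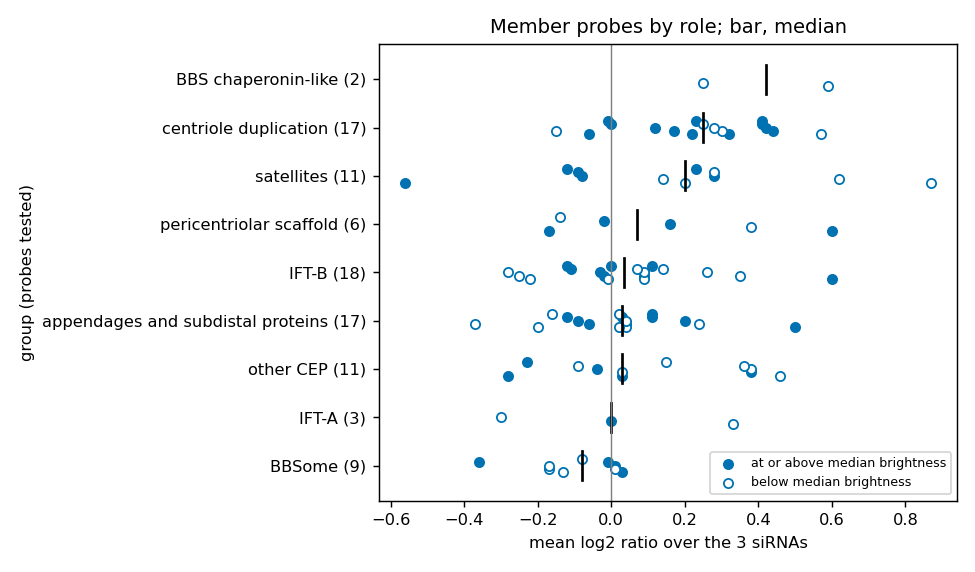
Mean log2 ratio over the 3 siRNAs (horizontal axis) for each of the 94 tested member probes, grouped by role; black bars are group medians and open points are probes below the median brightness. Centriole duplication probes have a median of 0.25 and range from -0.15 to 0.57; BBSome probes have a median of -0.08.

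For description the members were put into groups by role, after their values had been seen, so no test was made between groups. Among the 17 tested probes of 9 centriole duplication genes, 8, 7 and 6 were called higher with siRNA 1, 2 and 3. Of all probes, 11.7%, 10.6% and 9.95% were. None of the 17 was called lower, against 11.3%, 9.78% and 10.2% of all probes. Several of the 17 are probes of the same gene, 3 of them of CEP57, so they are not independent. The median of the 17 was 0.25, and 0.21 with median centring, where that of all tested probes was -0.05. That scaling left 3, 3 and 1 called higher, against 5.5%, 3.92% and 2.89% of all probes. CEP57, which with CEP152 helps to recruit the kinase PLK4 to the centriole, had 3 probes that were all higher. Probe HV3-60J24 gave 0.26, 0.23 and 0.57 on the arrays of siRNA 1, 0.31, 0.32 and 0.72 with siRNA 2, and 0.12, 0.12 and 0.53 with siRNA 3. All 9 values lay above 0, and the dye-swapped array, given last, was highest with each siRNA. Its mean was 0.42 ± 0.0722 (SE, adjusted p = 0.0841), a 1.34-fold difference. The other probes of CEP57 had means of 0.41 and 0.32. The estimates for HV3-60J24 were 0.42 ± 0.0394, 0.51 ± 0.0394 and 0.32 ± 0.0394 with siRNA 1, 2 and 3, with adjusted p of 0.000824, 0.000567 and 0.00275. These calls held with each array left out in turn, but that of siRNA 3 was lost with median centring and on the 6 Cy5 arrays alone. Of its 2 promoters in the table, the one printed above was chosen for its X-box and also holds a CCAAT match. Its TGACGT matches, 1 on each strand, overlap in the single stretch TGACGTCA. The other promoter has no X-box and no TGACGT, but 4 CCAAT matches and 1 TTTGAA match.

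CEP152, the scaffold that binds PLK4, was higher by both probes. HV3-15D07 gave 0.25, 0.26 and 0.40 with siRNA 1, 0.52, 0.63 and 0.50 with siRNA 2, and 0.42, 0.39 and 0.52 with siRNA 3. These ratios lay above 0 in both dye orientations, with a mean of 0.44 ± 0.0737 (SE, adjusted p = 0.0834) and calls with each siRNA, that of siRNA 1 lost without its dye-swapped array (0.27 at the lowest with an array left out). The dimmer probe HV3-15D09 had a mean of 0.25. CEP85, a centrosomal protein that acts with STIL in centriole duplication, had a highest probe with a mean of 0.41 ± 0.0794 and others at 0.17 and -0.06, so the probes of this gene differed in sign. CEP120, needed for centriole elongation, stood among the highest means at 0.57 ± 0.245 only through 1 array: its ratios were -0.06, -0.25 and 2.79 with siRNA 1, -0.02, -0.09 and 0.59 with siRNA 2, and 0.07, -0.55 and 0.50 with siRNA 3. The dye-swapped arrays were high and the Cy5 arrays near or below 0, and the 6 Cy5 arrays alone gave a mean of -0.15. CEP97, a centriole cap protein, had probes at 0 and -0.15. SASS6, the cartwheel protein, had a ratio on 1 array only.

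Satellite proteins and those that gather at the ciliary base held both the highest and the lowest member. CEP290, the gatekeeper of the ciliary transition zone, gave the highest means. Its probe HV3-34B07 read 0.38, 0.28 and 0.19 with siRNA 1, 0.49, 0.50 and 0.50 with siRNA 2, and 1.17, 1.16 and 1.05 with siRNA 3. The 3 groups of arrays did not overlap and no dye effect was called (adjusted p = 0.261). The estimates were 0.27 ± 0.0446, 0.48 ± 0.0446 and 1.11 ± 0.0446 with adjusted p of 0.00645, 0.00102 and 0.00031. The call with siRNA 1 was lost with median centring; the other calls held under each alternative that tested the probe, which is just below the median brightness. With siRNA 3 the estimate exceeded that with siRNA 1 by 0.85 ± 0.0617 (adjusted p = 0.0038) and that with siRNA 2 by 0.63 ± 0.0617 (adjusted p = 0.00528). The dim probe HV3-34B09 had the highest mean of all members, 0.87 ± 0.161 (adjusted p = 0.0895), with all 9 arrays above 0 but 2.51 on array 2 of siRNA 2, against 0.43 and 0.63 on its other arrays, and no single siRNA was called. The remaining tested probe of CEP290 had a mean of 0.20. An untested probe, HV3-34B13, had ratios from -0.83 to 0.02 on the 6 arrays where it gave one.

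**Figure D3:**
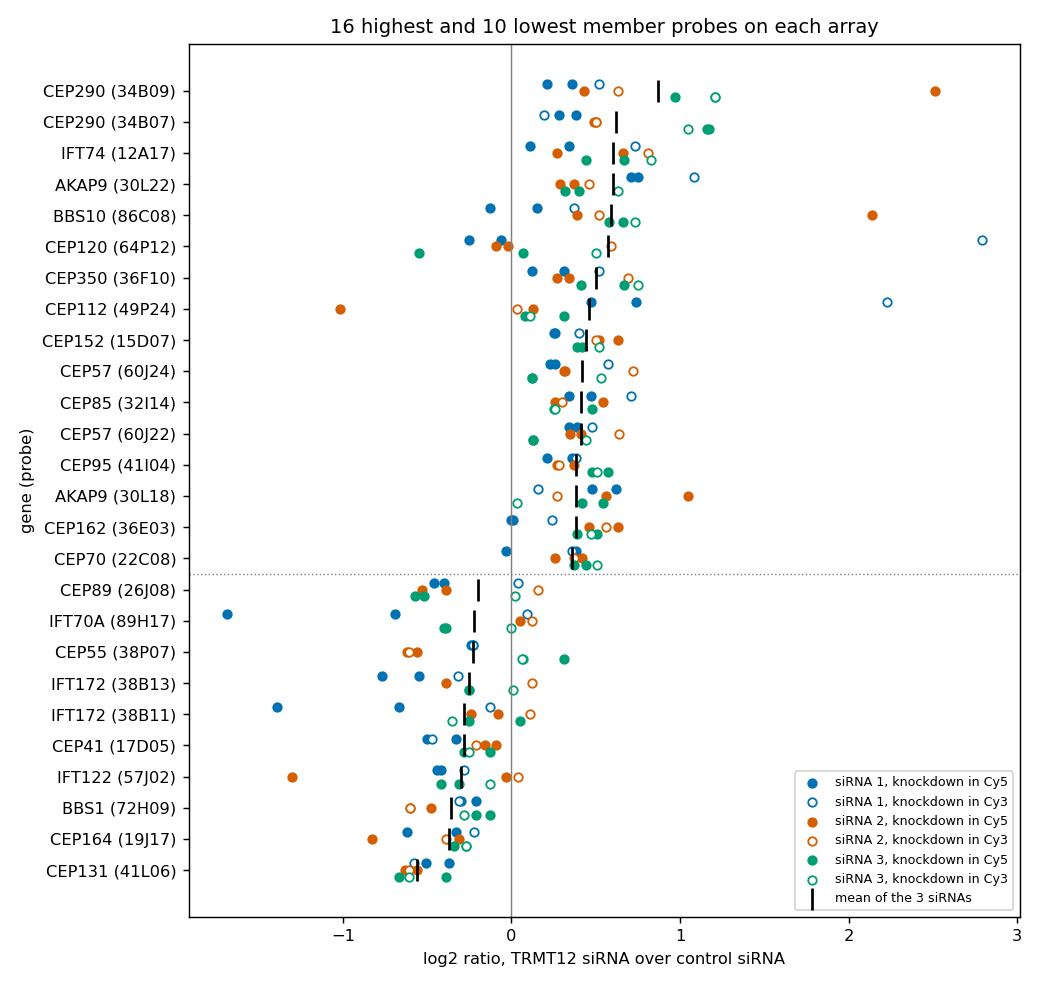
Log2 ratio of TRMT12 siRNA over control siRNA on each array (horizontal axis) for the 16 highest and 10 lowest member probes by mean over the siRNAs. Colours are the siRNAs, open points the dye-swapped arrays and black ticks the means; single points far from the rest, such as CEP120 at 2.79 and CEP290 at 2.51, lie on 1 array each.

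CEP131, a satellite protein first named AZI1, was the lowest member. HV3-41L06 read -0.37, -0.51 and -0.58 with siRNA 1, -0.56, -0.63 and -0.61 with siRNA 2, and -0.39, -0.67 and -0.61 with siRNA 3. All 9 arrays were low in both orientations, the mean was -0.56 ± 0.0655 (SE, adjusted p = 0.0814), and the calls with each siRNA held under every alternative that tested it. Its second probe, HV3-41L08, of similar brightness, read only -0.09 ± 0.0632 (adjusted p = 0.418), so the probes of CEP131 differed in size. PCM1, the scaffold of satellites, had tested probes at 0.28, 0.23 and -0.08; the 0.23 of HV3-08B16 came mainly from siRNA 3, with 0.56, 0.36 and 0.59 against 0.01, -0.22 and 0.11 with siRNA 1. That difference, 0.53 ± 0.0881, was called (adjusted p = 0.0177). The brightest PCM1 probe, HV3-08B12, was not called with any siRNA. OFD1, a satellite and distal centriole protein, had a mean of 0.28 ± 0.0727 (adjusted p = 0.124) and was called with siRNA 3 only, at 0.41; that call was lost with median centring and on the 6 Cy5 arrays.

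In the pericentriolar scaffold the large proteins went different ways. AKAP9, a scaffold of the Golgi and centrosome that anchors protein kinase A and gamma-tubulin complexes, was higher by its brightest probe. HV3-30L22 gave 0.71, 0.75 and 1.08 with siRNA 1, 0.37, 0.29 and 0.46 with siRNA 2, and 0.40, 0.32 and 0.63 with siRNA 3. The arrays of siRNA 1 all lay above those of the other siRNAs. The estimates were 0.89, 0.42 and 0.49, each ± 0.0509, and were called under every alternative that tested the probe; the mean was 0.60 ± 0.117 (adjusted p = 0.0915). The differences of siRNA 2 and 3 from siRNA 1 were -0.47 ± 0.0705 and -0.40 ± 0.0705 (adjusted p = 0.0303 and 0.021). The other AKAP9 probes had means of 0.38 and 0.16; the former was called higher with siRNA 1 and 2 and the latter with siRNA 1. Of these, the siRNA 1 call of HV3-30L18 was lost with 7 of the 9 arrays left out in turn. That of HV3-30L20 was lost without array 2 or the dye-swapped array of siRNA 1 and with median centring. Both were lost on the 6 Cy5 arrays. HV3-30L18, the probe with the mean of 0.38, is dim and exceeded the percentile of the negative controls used above on 0 of 9 arrays. PCNT, pericentrin, read -0.28, -0.41 and -0.22 with siRNA 1, -0.18, -0.32 and -0.11 with siRNA 2, and -0.04, -0.12 and 0.00 with siRNA 3. It was called lower with siRNA 1 at -0.29 ± 0.0505 (adjusted p = 0.00818), a call lost without the dye-swapped array, and with siRNA 2 at -0.19 ± 0.0505 (adjusted p = 0.044), a call lost with any of the 9 arrays left out. CDK5RAP2, which binds gamma-tubulin complexes to the centrosome, had a mean of -0.02 ± 0.071 (adjusted p = 0.888). CEP192, a scaffold that recruits mitotic kinases, had a mean of -0.14 ± 0.0655, and 0.03 on the 6 Cy5 arrays alone.

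Among appendage and subdistal proteins, CEP350, a large partner of CEP43 at the centriole, was the highest. HV3-36F10 read 0.12, 0.31 and 0.52 with siRNA 1, 0.34, 0.27 and 0.69 with siRNA 2, and 0.41, 0.67 and 0.75 with siRNA 3. All 9 arrays were above 0, the dye-swapped array again highest with each siRNA (dye term -0.15, adjusted p = 0.035), and the mean was 0.50 ± 0.0807 (adjusted p = 0.0832). The call with siRNA 1, at 0.37, was lost without array 2 or the dye-swapped array of that siRNA, with median centring and on the 6 Cy5 arrays, where that of siRNA 2 was lost too. The other CEP350 probe, HV3-36F08, had a mean of 0.24. CEP164, the distal appendage protein that begins ciliary vesicle docking, read -0.33, -0.62 and -0.22 with siRNA 1, -0.83, -0.31 and -0.39 with siRNA 2, and -0.34, -0.27 and -0.27 with siRNA 3. It was low on all 9 arrays with a mean of -0.37 ± 0.0728 (adjusted p = 0.0915), but only siRNA 2 was called, at -0.48 ± 0.107 (adjusted p = 0.0226), and not without array 1 or the dye-swapped array of that siRNA (-0.61 to -0.35 with an array left out). CEP89, another distal appendage protein, had a probe at -0.20, low on the Cy5 arrays and between 0.02 and 0.16 on the dye-swapped ones, and a brighter probe at 0.11 with the reverse pattern. The first was called lower with siRNA 1 at -0.18, a call lost with 8 of the 9 arrays left out in turn, and with siRNA 3 at -0.26, a call lost without any array of siRNA 3. NIN, ninein, which anchors microtubules at subdistal appendages, had tested probes at 0.04 and -0.06; the first was called higher with siRNA 3 at 0.31, a call lost with 7 of the 9 arrays left out in turn. CEP19, a protein of the mother centriole, had a mean of -0.16 and no call.

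Of the remaining CEP genes, CEP55 had the largest called difference between siRNAs. CEP55 acts at the midbody in the last step of cell division. It read -0.24, -0.23 and -0.23 with siRNA 1, -0.62, -0.56 and -0.61 with siRNA 2, and 0.31, 0.07 and 0.06 with siRNA 3. The 3 groups of arrays did not overlap. It was called lower with siRNA 1 at -0.24 ± 0.0571 (adjusted p = 0.0254, lost without any array of siRNA 1) and with siRNA 2 at -0.60 ± 0.0571 (adjusted p = 0.00111), while siRNA 3 gave 0.14 ± 0.0571 (adjusted p = 0.143). The difference between siRNA 3 and siRNA 2 was 0.74 ± 0.0792 (adjusted p = 0.00646), and that between siRNA 3 and siRNA 1 0.38 ± 0.0792 (adjusted p = 0.0325). CEP162, which helps to assemble the transition zone, was near 0 on the Cy5 arrays of siRNA 1 (0.00 and 0.01) and between 0.39 and 0.63 on the 6 arrays of the other siRNAs. Its estimates were 0.10, 0.57 and 0.47, each ± 0.0591, the last pair called under every alternative that tested the probe. CEP41, a ciliary protein linked to tubulin glutamylation, had probes that differed in direction: HV3-17D05 was low on all 9 arrays (mean -0.28 ± 0.0823), HV3-17D03 had a mean of 0.15, and HV3-17D07 was -0.31 with siRNA 1 and 0.23 with siRNA 3, both called, the second not with median centring. With siRNA 3 the HV3-17D05 and HV3-17D07 estimates were -0.23 and 0.23. The former was also called, a call lost without any array of siRNA 3. The latter call was also lost with the authors' calibrated ratio and without array 1 or the dye-swapped array of siRNA 3. Both were lost on the 6 Cy5 arrays. The promoter of CEP41 holds an X-box, a pair of CCAAT matches and an E2F-type match. CEP112 had a mean of 0.46 at the dim probe HV3-49P24, with 2.23 on the dye-swapped array of siRNA 1 and -1.02 for siRNA 2 on array 2, and -0.09 at the other probe; its call with siRNA 1, at 1.26, was lost without array 2 or the dye-swapped array of that siRNA. CEP95 (mean 0.38 ± 0.0767) and CEP70 (mean 0.36 ± 0.0719), named here after their values were seen, were above 0 on 9 and 8 of 9 arrays.

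Within IFT-B, the complex for transport towards the ciliary tip, IFT74 stood above the rest. It binds tubulin together with IFT81. It read 0.11, 0.34 and 0.73 with siRNA 1, 0.27, 0.66 and 0.81 with siRNA 2, and 0.44, 0.67 and 0.83 with siRNA 3. All 9 arrays were above 0 and the dye-swapped arrays highest (dye term -0.19, adjusted p = 0.0464). The mean was 0.60 ± 0.0749 (adjusted p = 0.0814), and each siRNA was called, at 0.46, 0.64 and 0.71 (each ± 0.0938), though none on the 6 Cy5 arrays alone, and siRNA 1 not without array 2 or its dye-swapped array. IFT81 itself had a probe, HV3-27D22, that was called with siRNA 2 only, at 0.64 ± 0.065 (adjusted p = 0.00143), from 0.42, 0.63 and 0.70 on its arrays, against 0.04 and 0.10 with siRNA 1 and 3. These differences were called (0.60, adjusted p = 0.0312, and -0.53, adjusted p = 0.0171). HV3-27D22 is dim, however, and exceeded the percentile of the negative controls used above, with either RNA, on only 1 of 9 arrays. The other IFT81 probe read 2.61 on the dye-swapped array of siRNA 1 and between -0.42 and 0.22 elsewhere.

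IFT88, a core subunit, had steady ratios that differed by siRNA: 0.02, 0.07 and 0.01 with siRNA 1, 0.38, 0.38 and 0.36 with siRNA 2, and -0.15, -0.31 and -0.17 with siRNA 3. The groups did not overlap, and the estimates of 0.37 ± 0.0478 with siRNA 2 (adjusted p = 0.00317) and -0.21 ± 0.0478 with siRNA 3 (adjusted p = 0.0245) were called in opposite directions, the latter lost without any array of siRNA 3, with median centring and on the 6 Cy5 arrays. Their difference was -0.58 ± 0.0662 (adjusted p = 0.00714). IFT22, a small GTPase-like subunit, showed a related order at HV3-31A03, with -0.30 and -0.23 with siRNA 1 and 3 and 0.17 with siRNA 2, each ± 0.0431 and each called; the value with siRNA 2 was not called with median centring, the authors' calibrated ratio or 7 of the 9 arrays left out in turn, and that with siRNA 3 not without its array 2 or its dye-swapped array. Its other probe, HV3-30P21, gave -0.11, 0.25 and -0.12 with siRNA 1, 2 and 3. IFT20, which also sits at the Golgi, was higher with siRNA 1 by both probes, at 0.37 ± 0.053 and 0.26 ± 0.0612, and between -0.07 and 0.02 with siRNA 2 and 3; both calls were lost with median centring, the calibrated ratio or without the dye-swapped array of siRNA 1. IFT80 was called higher with siRNA 2 at 0.30 ± 0.0483. Its probe is dim and exceeded the percentile of the negative controls used above, with either RNA, on only 1 of 9 arrays. IFT172, a peripheral subunit, was low with siRNA 1 by both probes, -0.49 ± 0.0647 (adjusted p = 0.00456, not without the dye-swapped array) and -0.68 ± 0.199 (adjusted p = 0.0519), and both are dim. IFT46 had probes at 0.09 and -0.11, the second called lower with siRNA 1 only at -0.19 (adjusted p = 0.032), a call lost with 7 of the 9 arrays left out in turn. IFT25, IFT27, IFT56 and IFT57 had means from -0.03 to 0.09 and no call. IFT70A, nearly identical to the untested IFT70B, had a mean of -0.22 ± 0.132 and no call.

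IFT-A, the complex for return transport, had 3 tested genes and no call. IFT122 had a mean of -0.30 ± 0.066 (adjusted p = 0.098) with its lowest ratio, -1.3, on array 2 of siRNA 2, IFT43 was at 0, and IFT140, at the dimmest of the 94 probes, read 3.07 for siRNA 2 on array 2 and between -0.55 and 0.79 elsewhere, with 1 array of siRNA 1 giving no ratio.

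In the BBSome, BBS1, the subunit that binds the membrane GTPase ARL6, was lower by its brightest probe. HV3-72H09 read -0.21, -0.30 and -0.31 with siRNA 1, -0.48, -0.60 and -0.60 with siRNA 2, and -0.21, -0.13 and -0.28 with siRNA 3. All 9 arrays were below 0 and those of siRNA 2 below all others. The mean was -0.36 ± 0.0926 (adjusted p = 0.124), and the estimates of -0.29, -0.57 and -0.22 (each ± 0.0466) had adjusted p of 0.006, 0.000695 and 0.0191; without the dye-swapped array of siRNA 1 the first was not called, and without any array of siRNA 3 the last was not. The other BBS1 probes, both less bright, had means of -0.17 and 0.03, so the gene's probes differed. BBS4, a subunit that binds PCM1, was called higher with siRNA 1 at 0.18 ± 0.0481 (adjusted p = 0.0356), a call lost with 7 of the 9 arrays left out in turn. BBS2 and BBS7 had means of 0.01 and -0.01, BBS5 -0.17, and the tested probes of BBS9 -0.08 and -0.13, with no call with any siRNA. BBS10 and BBS12, chaperonin-like proteins that help to assemble the BBSome, had means of 0.59 ± 0.146 and 0.25 ± 0.137 at dim probes, with no call; array 2 of siRNA 2 gave 2.14 and 1.36.

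**Figure D4:**
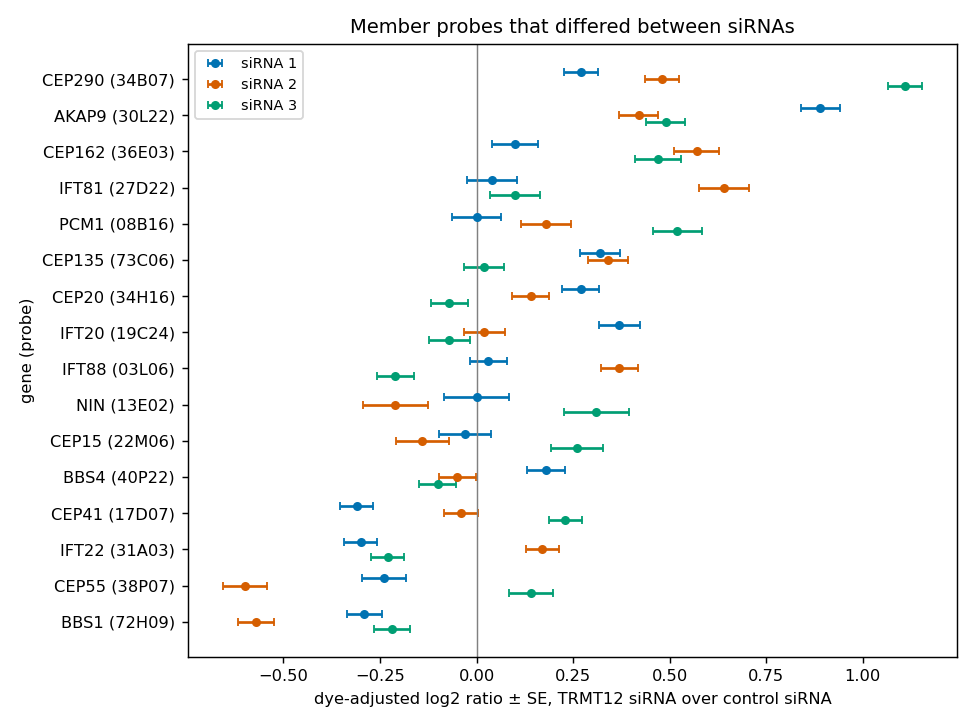
Dye-adjusted log2 ratio with its SE (horizontal axis) for each siRNA at the 16 member probes called in at least 1 difference between siRNAs. CEP290 is highest with siRNA 3 at 1.11 and AKAP9 with siRNA 1 at 0.89; CEP55 is lowest with siRNA 2 at -0.60.

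Members that differed between siRNAs were about as frequent as among all probes. For siRNA 2 minus siRNA 1, 4 members were called, against 2.64% of all probes; for siRNA 3 minus siRNA 1, 10 were (9.35%), and for siRNA 3 minus siRNA 2, 10 (10.2%). As shares of the 94 members these are 4.26%, 10.6% and 10.6%. With median centring none of these differences was called, and with the authors' calibrated ratio 0, 2 and 4 were. The shares of all probes called for these differences under those scalings are not given here.

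The dye orientation moved many members. Averaged over the siRNAs, 35 probes were above 0 in both orientations, 17 below 0 in both, and 41 had opposite signs. Among the 49 probes at or above the median brightness these counts were 18, 11 and 19. A dye term was called for 33 members: 11 were higher with the knockdown in Cy5, against 14.5% of all probes, and 22 lower (14.7%). Its part in the calls above was not measured. The fit on the 6 Cy5 arrays had no dye term, so any dye effect stays in its estimates, and it rests on fewer arrays. Calls lost there cannot tell these apart. That fit called 9 members higher with siRNA 1, 17 with siRNA 2 and 12 with siRNA 3. These are 9.57%, 18.1% and 12.8% of members, against 9%, 13.3% and 7.21% of all probes, so siRNA 1 showed almost no excess there. Over all tested probes, arrays of the same siRNA correlated at 0.405 to 0.687 within the Cy5 orientation and at 0.038 to 0.206 between orientations. The dye-swapped arrays of different siRNAs correlated at 0.517 to 0.617, above any pair of the same siRNA across orientations; these comparisons share the control siRNA. All these values are correlations across probes, which are not independent.

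**Figure D5:**
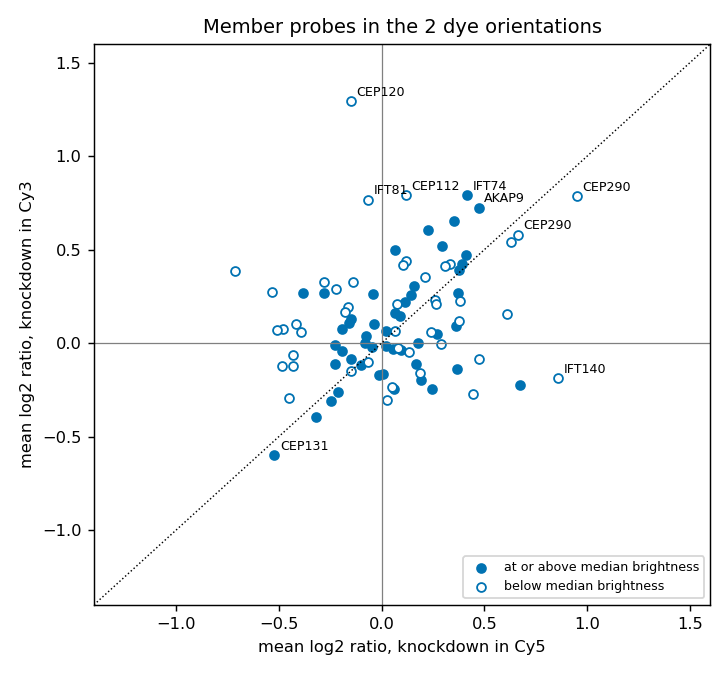
Mean log2 ratio over the siRNAs with the knockdown in Cy5 (horizontal axis) and in Cy3 on the dye-swapped arrays (vertical axis) for the member probes; the dotted line marks equality. Of the probes, 41 have opposite signs in the 2 orientations, and the CEP290 probe HV3-34B07 and the CEP131 probe HV3-41L06 lie near the line.

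Among the 26 genes with several tested probes, the means had the same sign in 14 genes and differed in 12. In 9 genes they spanned more than 0.3. The genes are also long: the tested member genes had a median genomic span of 59.2 kb, against 27.8 kb for all tested genes.

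Other genes of the same structures were described from lists of the brightest tested probe of each gene, with the median and counts of calls set beside those of all 14029 named genes, whose median was -0.01 and of which 11.8%, 9.49% and 12.5% were called higher and 14.4%, 13% and 11.5% lower with siRNA 1, 2 and 3. Genes of the pericentriolar material, the gamma-tubulin complexes and augmin were mostly called lower where they were called: of 36, 16, 11 and 11 were called lower and 2, 2 and 2 higher, with a median of -0.14. With median centring 17, 4 and 7 were lower and none was higher, with a median of -0.21. All tested probes then had a median of -0.05 and were called lower in 12.3%, 3.95% and 8.96%. LRRC45, a centrosome linker protein, had a mean of -0.62 ± 0.0707 (adjusted p = 0.0814), and NDE1, a dynein regulator, -0.30 ± 0.069; at the other end were TUBGCP5, a gamma-tubulin complex subunit, at 0.21 ± 0.0814 and CCDC14 at 0.19 ± 0.123. Of 25 other genes of centriole duplication and structure, 3, 5 and 5 were higher and 3, 1 and 3 lower (median 0.10). RTTN, a protein of centriole assembly, had a mean of 0.47 ± 0.0662 (adjusted p = 0.0825) and was called higher with each siRNA, TUBE1, epsilon-tubulin, had 0.48 ± 0.152, and at the other end C2CD3, a distal centriole protein, had -0.36 ± 0.0814 and was called lower with each siRNA, and POC1A -0.22 ± 0.0748.

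Of 17 other IFT, BBS and motor genes, 3, 6 and 1 were higher and 2, 2 and 1 lower (median 0.14). LZTFL1, a regulator of BBSome entry, had a mean of 0.66 ± 0.124, KIF3A, a motor subunit of transport towards the tip, 0.48 ± 0.0838, and the dynein-2 subunits DYNC2I2 and DYNC2I1 -0.28 ± 0.0645 and -0.26 ± 0.0732. Of 26 transition zone and distal appendage genes, 3, 3 and 5 were higher and 2, 0 and 0 lower. The median was 0.03, and -0.03 with median centring, where that of all tested probes was -0.05. ANKRD26 was at 0.55 ± 0.0914 and CC2D2A at 0.46 ± 0.118, while FBF1 and INVS were both at -0.13. Of 32 genes of ciliogenesis and hedgehog signalling, 6, 2 and 2 were higher and 5, 4 and 5 lower (median -0.03). EHD1, which acts in ciliary vesicle formation, was at -0.33 ± 0.0674 and AURKA, a mitotic kinase that also acts in cilium disassembly, at -0.27 ± 0.114; EHD3 was at 0.76 ± 0.434, from dye-balanced values of -0.06, 2.11 and 0.23; the second rests on a single ratio of 9.54 on array 2 of siRNA 2, without which the mean is -0.11, and HHIP, a hedgehog-binding protein, at 0.45 ± 0.0919.

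Genes outside these structures were counted in the same way. Of 35 golgins and other long coiled-coil proteins, 11, 13 and 15 were called higher and 2, 5 and 4 lower (median 0.10, and 0.03 with median centring, which left 6, 6 and 12 higher). With that scaling all tested probes had a median of -0.05 and were called higher in 5.5%, 3.92% and 2.89%. GCC2, a golgin of the trans-Golgi, had a mean of 1.06 ± 0.102 and GOLGA4 0.68 ± 0.0653, while NUMA1, a spindle pole protein, had -0.36 ± 0.09 and BICD2, a dynein adaptor, -0.27 ± 0.112. Of 30 mitosis genes, 25, 16 and 7 were called lower and 1, 3 and 8 higher, with a median of -0.21. With median centring 26, 9 and 6 were lower and 0, 1 and 3 higher, while all tested probes were called lower in 12.3%, 3.95% and 8.96%. KIF4A, a chromosome-bound kinesin, was at -0.49 ± 0.196 and UBE2C, a ubiquitin enzyme of mitotic exit, at -0.45 ± 0.0675; CENPE and HMMR stood at 0.28 ± 0.186 and 0.25 ± 0.106 and were called higher with siRNA 3. Whether the amount of dividing cells took part in the values of CEP55 and other members was not tested.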

How the data were processed

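RNA of SKbr3 cells was amplified to aminoallyl cRNA and coupled to Cy dyes, per the labels' protocols. The authors' files hold, per the file headers, a background-subtracted mean intensity for either dye, with a floor of 1, a spot quality as a fraction from 0 to 1, and a calibrated ratio of knockdown over control. A background and an area score were also deposited per spot, and a further deposited table holds log2 ratios, equal within 0.01 to log2 of the calibrated ratio on the 6 Cy5 arrays and to minus that on the 3 dye-swapped ones; it was not used further. The image program is not given in the sources used here. Dye-swapped columns had already been exchanged, per the series text, and with that reading the TRMT12 ratio was negative on each of the 9 arrays.

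Ratios were normalised by loess within arrays with limma 3.58.1 in R 4.3.3, with no further background correction, and with blank and negative-control spots at weight 0. Of 35140 probes, 30553 exceeded 2 background SD with either RNA on 6 or more arrays, and 28139 of these also gave ratios for each siRNA under both dye assignments. The 188 negative controls were not tested. The mean over siRNAs was tested with limma's moderated test on 3 dye-balanced values; single siRNAs and differences came from a fit on 9 arrays with a dye term. Adjustment was by Benjamini-Hochberg. No spread among control samples can be had from such ratios. The number of arrays limits the precision. The script was tested on simulated data.

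Gene names come from the platform annotation, updated through the gene identifier with the GRCh38.p14 gene table. Named with values are each singly named gene of the rule, each measured IFT and BBS gene, the 8 highest and 8 lowest CEP probes by mean, up to 4 members per difference by smallest adjusted p, and the 2 highest and 2 lowest genes of each other list. Members, lists and tests were chosen with earlier results of these data known, and the 6 promoters and role groups after the values were seen. Alternatives were median centring, the calibrated ratio, normexp with an offset of 50, stricter or no filters, spots of quality under 0.5 left out, each array left out, the 6 Cy5 arrays, siRNA as a random block, and the brightest probe of each gene. Normexp was fitted on found spots only, because floor values had broken a first fit on all spots. Filters over the negative controls were added after seeing the data, first at their 95th percentile and then, as that left 6 members, at their 75th.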

Additional observations from a re-analysis of the deposited data

Results flagged for a closer look

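The results below are named members whose estimates differed between siRNAs by a test of the difference itself (adjusted p under 0.05 in limma, 9 arrays). They are given as values. For siRNA 2 minus siRNA 1, the differences were -0.47 for AKAP9 (HV3-30L22), 0.47 for CEP162, 0.60 for IFT81 (HV3-27D22) and 0.47 for IFT22 (HV3-31A03). For siRNA 3 minus siRNA 1, they were 0.85 for CEP290 (HV3-34B07), -0.40 for AKAP9, 0.37 for CEP162, 0.53 for PCM1 (HV3-08B16), -0.44 for IFT20 (HV3-19C24), -0.28 for BBS4, 0.54 for CEP41 (HV3-17D07) and 0.38 for CEP55. For siRNA 3 minus siRNA 2, they were 0.63 for CEP290, -0.53 for IFT81, -0.58 for IFT88, 0.52 for NIN (HV3-13E02), 0.27 for CEP41, -0.40 for IFT22, 0.74 for CEP55 and 0.36 for BBS1 (HV3-72H09). None of these differences between siRNAs was called with median centring. The IFT81 and NIN probes named here are dim and exceeded the percentile of the negative controls used above on only 1 and 2 of 9 arrays.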

How the results depend on the processing

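For siRNA 1, the share of members called higher fell to that of all probes without its dye-swapped array and nearly so on the 6 Cy5 arrays; scaling moved the counts but left the shares above those of all probes. With median centring 9, 13 and 10 members were higher with siRNA 1, 2 and 3 (21, 20 and 18 with loess), 13 carried a dye term (33 with loess), and 0 differed between siRNAs in each of the 3 differences. With the authors' calibrated ratio 19 carried a dye term, and 0, 2 and 4 differed for siRNA 2 minus 1, 3 minus 1 and 3 minus 2 (4, 10 and 10 with loess). For differences and dye terms, the share of all probes called is given for the main fit only. Their counts under the alternatives in this paragraph therefore cannot be set against all probes. The 6 Cy5 arrays gave 9 higher with siRNA 1 (9.57%, against 9% of all probes) and a median of 0.06 (0.04 on all arrays). The brightest probe of each gene gave 13 higher with siRNA 1 (21.3%, against 11.8% of all named genes). Across the siRNAs (0 called), normexp called 10 members (10.6%, against 3.92% of all probes), both channels on all arrays 12 (15%, against 7.47%), low-quality spots left out 13 (16.2%, against 7.32%) and the random block 21 (22.3%, against 13.6%). Both channels on all arrays gave 10 differences for siRNA 2 minus 1 and 16 for siRNA 3 minus 2; low-quality spots left out gave 13, 19 and 18 for the 3 differences. The 75th-percentile filter, added after seeing the data, called 15 across the siRNAs (24.6%, against 10.4%). It called 8 lower with siRNA 2 (13.1%, against 20.9% of all probes, and 5 members without it) and 14, 19 and 18 differences. The 95th-percentile filter kept 6 members. Of these, 1 was called across the siRNAs (16.7%, against 20.3% of all probes). With siRNA 1, 2 and 3, 3, 1 and 1 were higher (50%, 16.7% and 16.7%, against 20.1%, 21.1% and 22%). Those lower were 1, 1 and 1 (16.7% each, against 25.2%, 24% and 26.7%). For siRNA 3 minus 1 and 3 minus 2, 4 and 3 members differed, 3 carried a dye term, and the median was 0.06. The filter on dim probes removed no probe that had the ratios a test needs. Leaving out each array in turn gave 0 to 2 members across the siRNAs and a median of 0.03 to 0.06. It gave 4 to 27 higher and 4 to 16 lower with siRNA 1, the fewest without its dye-swapped array, 15 to 21 higher and 3 to 4 lower with siRNA 2, and 12 to 26 higher and 1 to 7 lower with siRNA 3. All probes were then called higher in 4.99% to 15.3%, 6.76% to 9.65% and 4.17% to 12.8%. They were called lower in 3.19% to 15.1%, 5.34% to 8.62% and 3.86% to 13%. Differences ranged over 0 to 2, 2 to 18 and 3 to 13, and dye terms over 12 to 39.

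Among the named members, whose means were recomputed under each alternative, 14 probes changed sign, none called across the siRNAs; members not named were not followed here. On the 6 Cy5 arrays these were CEP120 at -0.15, IFT81 (HV3-27D24) at -0.06, IFT20 (HV3-19C24) at -0.04, IFT56 at -0.14, NIN (HV3-13E02) at -0.22, BBS4 at -0.16 and CEP192 at 0.03. With median centring they were IFT20 (HV3-19C22) at -0.01, BBS1 (HV3-72H07) at -0.08 and BBS2 at -0.1. With the calibrated ratio they were BBS1 (HV3-72H07) at -0.05, BBS2 at -0.08 and IFT57 at 0.02, and with low-quality spots left out IFT57 at 0.01. With an array left out, IFT81 (HV3-27D24) ranged from -0.12 to 0.59, BBS4 from -0.01 to 0.02, BBS2 from -0.02 to 0.04, BBS7 from -0.05 to 0.06, IFT57 from -0.06 to 0.03, IFT27 from -0.06 to 0.01 and IFT25 from -0.07 to 0.01. The cause of these changes was not tested. Of 59 calls of named members with a single siRNA, 31 were kept with each array left out and 24 under every alternative that tested them. No paired analysis was possible because the labels give the arrays no replicate numbers, and those used here follow accession order. Dim probes and background from randomised controls limit what these arrays show.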
